A study of Homo sapiens with 8 samples.

Results

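Numbered ZNF genes are the genes whose symbol is ZNF followed by a number alone, most of which code for proteins with C2H2 zinc fingers. The table of the SK-UT-1 series held 60282 genes, of which 479 were numbered ZNF genes. The 320 with a mean of at least 10 CPM (the share of a library's counts that fell on the gene, on a common scale) over the 8 libraries were taken as the expressed members. This mean was taken over both groups, so the level of the members is a description and not a finding. The difference between the groups was not part of this rule, although the members were chosen with earlier results of these data known. SK-UT-1 is a cell line from a human uterine leiomyosarcoma, a malignant tumour of smooth muscle. Its cells were given 5 µM TP-472 for 48 h or vehicle (DMSO), with 4 RNA-seq libraries in each group. TP-472 is a small-molecule inhibitor of BRD9, the bromodomain protein of a SWI/SNF chromatin remodelling complex, and of its relative BRD7. A single cell line, dose and time were measured, and the labels do not say whether the libraries came from separate cultures, so the p-values measure the spread between these samples.

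Each C2H2 finger folds around a zinc ion and reads a few bases of DNA, and fingers are strung together by a short conserved linker with the residues TGEKP. Many of these proteins also carry a KRAB domain, which recruits TRIM28 and, through it, the histone methyltransferase SETDB1, HP1 proteins and histone deacetylases to silence transposable elements and other targets. The genes arose by repeated duplication and lie in clusters, above all on chromosome 19. Other members have no KRAB domain and act in chromatin complexes, in RNA processing, in ribosome maturation or at the mitotic spindle.

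The libraries held between 32574716 (vehicle replicate 3) and 38545695 (TP-472 replicate 1) estimated counts, and the 320 members together took between 1.08% and 1.36% of them. Among smooth muscle markers, ACTA2 and CALD1 were present at mean levels of 161 and 201 CPM with vehicle and 108 and 189 CPM with TP-472, and TAGLN at 32.5 and 20.01 CPM (called lower). Of the markers of mature contractile muscle, MYH11 and ACTG2 were near absent, at mean levels of 0.00687 and 0.0214 CPM with vehicle and 0.234 and 0.0345 CPM with TP-472. LMOD1 stood at 2.54 and 0.693 CPM (called lower), DES at 3.27 and 0.618 CPM (called lower) and CNN1 at 1.26 and 1.35 CPM (not called). Of the 6 smooth muscle markers tested, 3 were thus called lower and 0 higher, and 4 and 0 without vehicle replicate 3. Of all genes tested, 14.9% were called lower and 12% higher (13.4% and 12% without vehicle replicate 3). VIM, a mesenchymal intermediate filament, stood at 2579 and 1884 CPM. COL1A2, another mesenchymal gene, fell from 598 to 97.6 CPM. The leukocyte markers PTPRC and CD3E were at or near 0 in all libraries, while CD68 stood at 7.59 CPM with vehicle and 10.3 CPM with TP-472. The endothelial markers CDH5, PECAM1 and VWF were all under 1 CPM. PECAM1 and VWF had mean levels of 0.0137 and 0.0931 CPM with vehicle and 0.194 and 0.201 CPM with TP-472, and CDH5 0 and 0.0736 CPM. The endothelial markers summed to between 0.0581 and 0.136 CPM with vehicle and between 0.415 and 0.607 CPM with TP-472. Of the 4 epithelial markers, KRT18 was called higher (7.46 and 15.4 CPM) and KRT8 was not called (2.004 and 2.82 CPM). EPCAM and CDH1 were too low to be tested, with EPCAM at mean levels of 0.739 and 0.240 CPM, where every TP-472 library lay below every vehicle library, and CDH1 at 0.427 and 0.411 CPM. The 8 smooth muscle markers summed to between 388 and 418 CPM with vehicle and between 304 and 339 CPM with TP-472, led by CALD1, and their part in the results on ZNF genes was not tested.

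Vehicle replicate 3 stood apart from the other vehicle libraries. In it, 209 of the 320 members were below their mean level in vehicle replicates 1, 2 and 4, with a median shift of -0.28 on the log2 scale, against -0.0041 over all genes tested. The shift followed the base composition of the transcripts. Its Spearman correlation with GC content was 0.74 over the 320 members and 0.77 over the 13970 genes tested with a known GC content, where all points share the same libraries. The median coefficient of variation of the members was 17.2% over the 4 vehicle libraries, 6.22% without vehicle replicate 3 and 6.03% over the 4 TP-472 libraries. The counts of calls and the values of the genes below are therefore given also without vehicle replicate 3 where it matters, and the part of GC content in the differences between the groups was not tested beyond removing its trend.

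With TP-472, expressed numbered ZNF genes were called at a lower share than all genes tested. With all 8 libraries, more of those called were higher than lower. A gene was called when edgeR's quasi-likelihood test, adjusted by Benjamini-Hochberg over all 14073 genes tested, gave an adjusted p under 0.05 and the fold change was over 1.5. By this rule 57 of the 320 members were called (17.8%), against 26.9% of all genes tested. Of these, 37 were higher with TP-472 (11.6% of the members, against 12% of all genes tested) and 20 were lower (6.25%, against 14.9%). With all 8 libraries the share higher was thus close to the background, and the share lower was under it. Leaving out vehicle replicate 3 gave 28 higher and 16 lower members (8.75% and 5%), both under the backgrounds of 12% and 13.4%. The number lower also fell to 12 without TP-472 replicate 2 and to 13 without TP-472 replicate 3, against backgrounds of 9.97% and 9.86%. With the trend of each library with GC content removed, a step added after the data were seen, the split was 27 higher (8.44% of the members, against 13.3% of all genes tested) and 29 lower (9.06%, against 14.8%).

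The differences of most members were small. Their median log2 fold change was 0.16 (interquartile range -0.18 to 0.43, n = 320), against -0.03 over all genes tested (-0.47 to 0.35), and 195 members were above 0. Without vehicle replicate 3 the median was 0.12, against -2.14e-05 over all genes. The members' median level had an SD of 0.10 between libraries of 1 group, and of 0.04 without vehicle replicate 3. Against the mean of vehicle replicates 1, 2 and 4, the members' median (log2) was 0.03, -0.01, -0.28 and -0.03 for the vehicle libraries, taken by number, and 0.13, 0.09, 0.09 and 0.17 for those given TP-472, so that every TP-472 library lay above every vehicle library. More than 2-fold differences were found for 10 members (3.12%, against 13.6% of all genes tested and 15.2% of the tested numbered ZNF genes under 10 CPM). The members ranged from -1.70 (ZNF516) to 1.29 (ZNF622). Without the limit on fold change, 119 members passed, against 36.3% of all genes tested. Of these 87 were higher and 32 lower, where the backgrounds were 17.2% and 19.1%. In the fit without vehicle replicate 3, 195 passed (134 higher and 61 lower), against backgrounds of 57% in all, 28.6% higher and 28.4% lower. In bulk RNA, a change in the RNA per cell and a change in the make-up of the cells cannot be told apart.

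The libraries of the groups did not overlap for 120 members with TP-472 higher and 40 with TP-472 lower, where the backgrounds were 23.8% and 21.6% of all genes tested (45.4% in either direction). There were 137 and 71 such members without vehicle replicate 3, where 3 vehicle libraries separate more easily and the backgrounds were 29.8% and 28.7% (58.5% in either direction). Of the 57 members called, 56 showed no overlap, and the exception was ZNF827 (two-sided exact permutation test over 70 assignments, p = 0.0571, where the smallest possible p is 0.0286). The calls with and without vehicle replicate 3 shared 23 higher and 15 lower members. A further 14 higher and 5 lower members were called with all 8 libraries only, and 5 higher and 1 lower without vehicle replicate 3 only. The sign of the difference was the same for 286 of the 320 members.

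**Figure D1:**
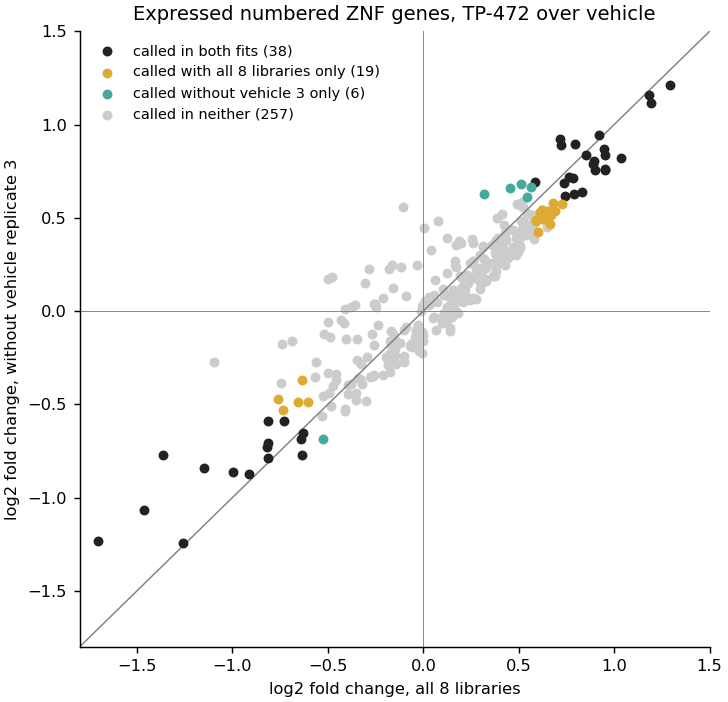
Log2 fold change of TP-472 over vehicle for the 320 expressed numbered ZNF genes, with all 8 libraries (x axis) and without vehicle replicate 3 (y axis). Each point is a gene and the diagonal marks equal values: the 38 members called in both lie on both sides of 0, and 19 were called with all 8 libraries only and 6 without vehicle replicate 3 only.

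Among the members that were higher, ZNF622 changed most. ZNF622, a cytoplasmic factor in the maturation of the large ribosomal subunit (chr5:16451519-16465792, GRCh38), stood at 17.7, 19.4, 15.8 and 23.5 TMM-scaled CPM in vehicle replicates 1 to 4 and at 47.4, 45.7, 49.0 and 45.02 CPM with TP-472. All 4 TP-472 libraries were far above the highest vehicle library, and the log2 fold change was 1.29 ± 0.13 (SE; edgeR's quasi-likelihood test, adjusted p = 0.000279) and 1.21 without vehicle replicate 3. ZNF35 (chr3:44648727-44660791) stood at 14.2, 15.98, 11.7 and 14.6 CPM with vehicle and at 31.8, 31.5, 32.6 and 33.2 CPM with TP-472. Its TP-472 libraries lay within a narrow band above every vehicle library, with a log2 fold change of 1.19 ± 0.12 (edgeR, adjusted p = 0.000254) and 1.11 without vehicle replicate 3. ZNF697 (chr1:119619422-119647773) stood at 12.03, 12.9, 11.8 and 12.9 CPM with vehicle and at 27.8, 25.7, 27.6 and 31.5 CPM with TP-472. Here vehicle replicate 3 was level with the other vehicle libraries, and the log2 fold change was 1.18 ± 0.11 (edgeR, adjusted p = 0.000186) and 1.16 without it.

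The KRAB zinc finger genes ZNF92, ZNF669, ZNF267, ZNF583 and ZNF57 were also higher. ZNF92 (chr7:65373799-65401135) stood at 27.9, 38.9, 15.1 and 35.4 CPM with vehicle and at 60.4, 58.7, 62.1 and 58.9 CPM with TP-472. Vehicle replicate 3 was low, so that the log2 fold change of 1.03 ± 0.25 (edgeR, adjusted p = 0.0132) was 0.82 without it. ZNF267 (chr16:31873758-31917357) was also low in vehicle replicate 3, with 33.3, 39.7, 18.3 and 38.9 CPM against 59.7, 61.8, 64.5 and 65.9 CPM with TP-472. Its log2 fold change was 0.95 ± 0.22 (edgeR, adjusted p = 0.0106) and 0.76 without that library. ZNF57 (chr19:2900898-2918476) stood at 10.1, 9.92, 7.70 and 9.499 CPM with vehicle and at 16.8, 18.7, 19.03 and 17.1 CPM with TP-472. The groups were well apart in each of its libraries (log2 fold change 0.95 ± 0.13, edgeR, adjusted p = 0.000968, and 0.87 without vehicle replicate 3). ZNF669 rose from 10.9 ± 1.95 to 21.2 ± 0.814 CPM (mean ± SD, n = 4) and ZNF583 from 9.20 ± 2.61 to 17.8 ± 0.723 CPM. ZNF583 and ZNF57 were under 10 CPM with vehicle, so they became members only through the TP-472 group. The other 29 members called higher had log2 fold changes between 0.59 and 0.92.

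ZNF516 fell most. ZNF516, a partner of the CtBP co-repressor complex (chr18:76358190-76495190), stood at 34.4, 23.3, 68.2 and 23.1 CPM with vehicle and at 11.6, 12.46, 10.1 and 11.6 CPM with TP-472. Vehicle replicate 3 was far above the other vehicle libraries, and all of them lay above every TP-472 library (log2 fold change -1.70 ± 0.34, edgeR, adjusted p = 0.00553, and -1.23 without vehicle replicate 3). ZNF608 (chr5:124636913-124748807), which is related to ZNF609, stood at 107, 102, 107 and 101 CPM with vehicle and at 45.3, 42.3, 43.7 and 43.4 CPM with TP-472. It had the smallest adjusted p among the members named by size of change, its vehicle libraries were level with each other, and its log2 fold change hardly depended on vehicle replicate 3 (-1.26 ± 0.09, edgeR, adjusted p = 4.35e-05, and -1.25 without it). ZNF395 (chr8:28345585-28402701), a hypoxia-inducible regulator, stood at 55.5, 55.1, 76.7 and 54.4 CPM with vehicle and at 31.4, 31.1, 29.1 and 29.4 CPM with TP-472. Its log2 fold change was -0.997 ± 0.13 (edgeR, adjusted p = 0.000954) and -0.86 without vehicle replicate 3.

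Vehicle replicate 3 was also the highest vehicle library of ZNF618, ZNF358, ZNF862 and ZNF133. ZNF618, a partner of UHRF2, stood at 60.3, 29.1, 91.5 and 31.8 CPM with vehicle and at 20.7, 17.9, 17.3 and 21.2 CPM with TP-472, with a log2 fold change of -1.46 and -1.07 without vehicle replicate 3. The vehicle libraries of ZNF358 were at 16.5, 16.8, 50.6 and 16.8 CPM and its TP-472 libraries at 10.9, 9.75, 10.6 and 7.85 CPM. Here 1 library decided the size of the difference, which was -1.36 on the log2 scale with all libraries and -0.77 without vehicle replicate 3. The call of ZNF358 was lost when any 1 of the TP-472 libraries was left out, with log2 fold changes from -1.43 to -1.27. ZNF358 and ZNF862 were under 10 CPM with TP-472 and became members only through the vehicle group. ZNF862 (-1.15, and -0.84 without vehicle replicate 3), ZNF318 (-0.92 and -0.87) and ZNF133 (-0.82 and -0.73) were lower both with and without that library. ZNF318, known in B cells for its part in immunoglobulin transcript processing, stood at 95.4, 68.5, 87.7 and 71.2 CPM with vehicle and at 40.3, 39.2, 39.6 and 52.0 CPM with TP-472. The other 12 members called lower had log2 fold changes between -0.82 and -0.61. In total, 18 members higher and 11 lower were called with all 8 libraries and in every other fit tried (5.62% and 3.44% of the members, against 7.35% and 7.78% of all genes tested under the same rule).

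**Figure D2:**
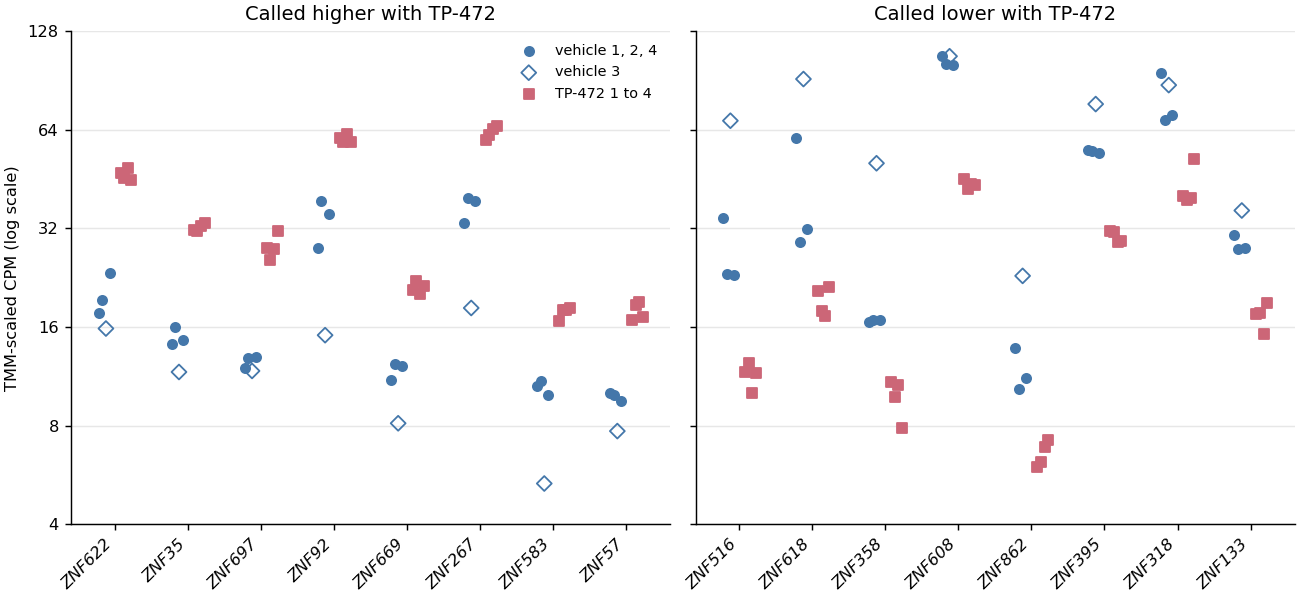
TMM-scaled CPM (log axis) of the 8 members with the largest rise and the 8 with the largest fall among those called with no overlap between groups. Each point is a library. Vehicle replicate 3 (open diamonds) is the lowest vehicle library of most of the genes that rose, such as ZNF92 at 15.1 CPM, and the highest of most that fell, such as ZNF358 at 50.6 CPM.

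Some members gained or lost their call with vehicle replicate 3. ZNF668 stood at 10.1, 10.49, 20.8 and 11.2 CPM with vehicle and at 16.2, 15.95, 17.8 and 15.7 CPM with TP-472. The vehicle library that was out of step lay above all TP-472 libraries, the others below them, and the log2 fold change was 0.32 with all libraries and 0.63 (called) without it. ZNF408 also gained its call (0.45, and 0.66 without vehicle replicate 3, where it was called). ZNF692 (-0.76, and -0.47 without that library), ZNF496 (-0.63 and -0.37) and ZNF609 (-0.73 and -0.53) were called lower with all 8 libraries and not without that library. The calls of ZNF692 and ZNF496 were also lost without any 1 of the TP-472 libraries (-0.81 to -0.71 and -0.64 to -0.63). That of ZNF496 was lost without vehicle replicate 1 (-0.66), and that of ZNF609 without TP-472 replicate 2 (-0.70) or replicate 3 (-0.68). Removing the GC trend ended the calls of ZNF692 and ZNF496 (-0.41 and -0.43). With the replicate number as a block, ZNF692, ZNF496 and ZNF609 were not called (-0.70, -0.58 and -0.70), nor was ZNF496 with limma-voom (-0.58).

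The most abundant members in CPM, a scale that also rises with transcript length, were mostly not called. ZNF207, which binds spindle microtubules and the checkpoint protein BUB3, stood at 275, 278, 181 and 279 CPM with vehicle and at 337, 348, 334 and 352 CPM with TP-472. The groups did not overlap, but the log2 fold change of 0.44 (0.30 without vehicle replicate 3) was under the fold limit. ZNF451, a SUMO ligase, stood at 170, 179, 98.0 and 175 CPM with vehicle and at 218, 209, 206 and 235 CPM with TP-472. Its groups did not overlap either, but its log2 fold change of 0.48 (0.31 without vehicle replicate 3) passed neither limit (edgeR, adjusted p = 0.0691). ZNF121 was called, with 141, 167, 123 and 166 CPM against 229, 222, 225 and 236 CPM and a log2 fold change of 0.61, and lost its call without vehicle replicate 3 (0.53, under the fold limit). The RNA-binding proteins ZNF106 and ZNF638 had log2 fold changes of -0.16 and -0.04 with overlapping groups, and of -0.26 and -0.14 without vehicle replicate 3, where the groups no longer overlapped and neither was called. At the other end, the last members inside the limit of 10 CPM were ZNF546, ZNF513 and ZNF350 (means of 10.0, 10.2 and 10.3 CPM), and the first genes outside it were ZNF442, ZNF230 and ZNF439 (9.93, 9.83 and 9.64 CPM). The 299 members that reached 10 CPM in both groups included 32 higher and 16 lower (10.7% and 5.35%, against 12% and 14.9% of all genes tested, and 23 and 12 without vehicle replicate 3). The 21 that reached it in 1 group only, and so tended to be those that differed, included 5 higher and 4 lower (42.9% called).

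The transcripts of most members share the DNA letters of the linker between fingers. The letters ACNGGNGANAANCC, which in frame code for the core of the linker (N is any base), were found in the coding sequence of 251 of the 320 members (78.4%) and of 194 of 11890 other genes tested with a coding sequence (1.63%). The members held a median of 4 such sites, and ZNF850 held the most, 25. One finger with its linkers on either side spans 98 bases, and 4 members that rose show how the linkers (capitals, GRCh38, coding strand 5′ to 3′) keep their letters while the finger between them varies.
ZNF35, chr3:44659432-44659529, plus strand: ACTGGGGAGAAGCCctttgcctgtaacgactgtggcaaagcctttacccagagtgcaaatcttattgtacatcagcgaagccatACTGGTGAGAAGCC
ZNF92, chr7:65398784-65398881, plus strand: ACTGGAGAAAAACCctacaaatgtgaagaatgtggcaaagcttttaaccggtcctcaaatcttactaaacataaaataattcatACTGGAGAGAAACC
ZNF57, chr19:2917444-2917541, plus strand: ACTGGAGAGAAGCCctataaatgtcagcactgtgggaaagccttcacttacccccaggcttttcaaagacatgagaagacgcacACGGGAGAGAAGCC
ZNF697, chr1:119623120-119623217, minus strand: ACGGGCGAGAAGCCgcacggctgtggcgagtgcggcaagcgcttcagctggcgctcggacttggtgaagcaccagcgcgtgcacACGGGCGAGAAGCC

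With all 8 libraries, calls higher outnumbered calls lower among members with many linkers, and not among those with few, a difference that was not tested. Without vehicle replicate 3, they did so in both. Of the 186 members with at least 4 linkers, 24 were higher and 4 lower, and of the 134 with 3 or fewer, 13 were higher and 16 lower (backgrounds of 12% and 14.9% of all genes tested). The median log2 fold changes were 0.18 and -0.00069. The 69 members without a linker held 11 of the 20 members called lower and 7 of the 37 called higher. They gave 8 lower and 8 higher without vehicle replicate 3. Without vehicle replicate 3 the counts were 12 higher and 4 lower with at least 4 linkers, and 16 higher and 12 lower with 3 or fewer (backgrounds of 12% and 13.4%). In that fit the medians of 0.12 and 0.10 were close to each other.

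The number of linkers moved together with GC content and with the shift of vehicle replicate 3. Members without a linker had a median GC content of 49.2% and lay 0.35 higher in vehicle replicate 3 than in the other vehicle libraries (median log2), while members with 7 to 9 linkers had 40.9% and a median shift of -0.43. Over the 320 members, which share all libraries, the Spearman correlation of linkers with GC content was -0.43. That of linkers with the log2 fold change was 0.19, and 0.06 without vehicle replicate 3. The shares of all genes tested that were called higher and lower were 12% and 14.9% with all libraries, 12% and 13.4% without vehicle replicate 3, and 13.3% and 14.8% with the GC trend removed. With the GC trend removed, the members without a linker gave 6 higher and 10 lower (8.7% and 14.5%), and those with 1 to 3 linkers 9 and 9 (13.8% each). Of the 82 members with 4 to 6 linkers, 12 were higher and 3 lower with all libraries (14.6% and 3.66%). These members gave 8 and 3 without vehicle replicate 3, and 8 and 8 with the GC trend removed (9.76% each). Of the 56 with 7 to 9 linkers, 8 were higher and 0 lower with all libraries (14.3% and 0%), 4 and 0 without vehicle replicate 3, and 4 and 1 with the GC trend removed (7.14% and 1.79%). In the class of 10 or more linkers, 4 members were higher and 1 lower with all libraries (8.33% and 2.08%), and 0 and 1 both without vehicle replicate 3 and with the GC trend removed.

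**Figure D3:**
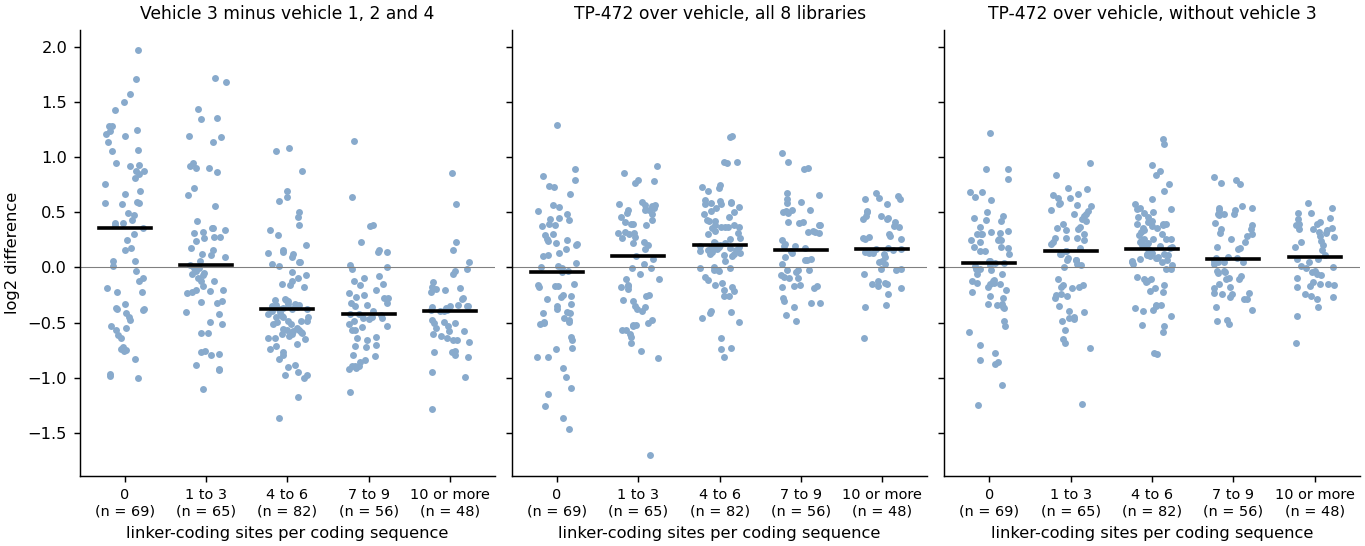
Members grouped by the number of linker-coding sites in their coding sequence (x axis), with the log2 difference of vehicle replicate 3 from the other vehicle libraries (left), and the log2 fold change of TP-472 over vehicle with all 8 libraries (middle) and without vehicle replicate 3 (right). Points are genes and bars are medians: from 0 to 7 to 9 linkers the left medians go from 0.35 to -0.43, and the middle ones from -0.04 to 0.16.

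Chromosome 19 held 161 of the 320 members. On it, 19 members were higher and 5 lower (11.8% and 3.11%, and 13 and 4 members without vehicle replicate 3), with a median log2 fold change of 0.20. On the other chromosomes 18 of 159 were higher and 15 lower (11.3% and 9.43%, and 15 and 12 members), with a median of 0.10, where 12% and 14.9% of all genes tested were called. With the GC trend removed the counts were 12 higher and 8 lower on chromosome 19 and 15 and 21 elsewhere, with medians of 0.07 and 0.05. Of all genes tested, 13.3% were higher and 14.8% lower in that fit, and 12% and 13.4% without vehicle replicate 3. Most of the members on chromosome 19 lay in 7 clusters, in each of which neighbouring numbered ZNF genes were less than 1 Mb apart. The cluster nearest the long-arm end (chr19:55476332-58481230) held 37 members, of which 8 were higher and 0 lower (median 0.31, 29 above 0). Without vehicle replicate 3 it held 10 higher and 0 lower (27% of its members, against 12% of all genes tested), with a median of 0.39. Among these, ZNF583, ZNF416 and ZNF552 were under 10 CPM with vehicle (means of 9.20, 8.24 and 8.33 CPM) and became members only through the TP-472 group, where they were high. Of the 33 members there that reached 10 CPM in both groups, 5 were higher and 0 lower with all libraries (15.2%, against 12% of all genes tested), and 7 and 0 without vehicle replicate 3 (21.2%, against 12%), with medians of 0.31 and 0.39. Among the 29 other genes tested in the same interval, 5 were higher and 1 lower, with medians of 0.09 and, without vehicle replicate 3, 0.17. No test between the clusters was made, since neighbouring genes share sequence and ancestry.

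In that cluster, ZNF134 stood at 31.7, 32.05, 27.9 and 30.8 CPM with vehicle and at 52.1, 51.2, 51.1 and 53.3 CPM with TP-472. Its groups were far apart and vehicle replicate 3 was only a little low (log2 fold change 0.76, and 0.72 without that library). ZNF551 stood at 25.4, 20.8, 34.1 and 22.3 CPM with vehicle and at 42.3, 40.1, 39.6 and 47.5 CPM with TP-472. There vehicle replicate 3 was the highest vehicle library, and the log2 fold change grew from 0.72 to 0.89 without it. ZNF583, ZNF256, ZNF416, ZNF552, ZNF814 and ZNF544 were the others called higher, and ZNF324, ZNF530 and ZNF584 were called only without vehicle replicate 3, where ZNF544 was not called.

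The neighbouring cluster at chr19:51571298-53580269 depended on vehicle replicate 3. With all libraries, 6 of its 30 members were higher and 1 (ZNF83) lower (backgrounds of 12% and 14.9% of all genes tested), with a median log2 fold change of 0.33, and of the 9 other genes there 1 was higher and 0 lower. Without that library, ZNF468 was the 1 member called higher and ZNF83 the 1 called lower, and the median was 0.26. The cluster next to the centromere (chr19:19668796-24129961) held 26 members with a median GC content of 37.4%, of which 0 were higher and 1 (ZNF730, a member through 1 group only) lower (median 0.03, and -0.05 without vehicle replicate 3). Among the 16 other genes tested there, 0 were higher and 6 lower (median -0.39).

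**Figure D4:**
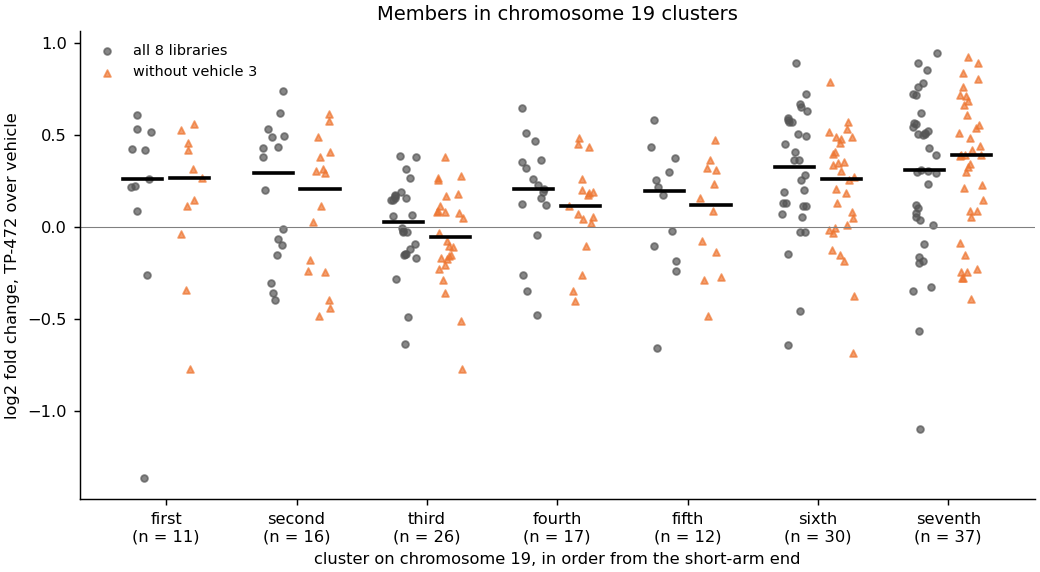
Log2 fold change of TP-472 over vehicle for the members in the 7 clusters on chromosome 19, in order from the short-arm end, with all 8 libraries (circles) and without vehicle replicate 3 (triangles). Each point is a gene and bars are medians: the seventh cluster has medians of 0.31 and 0.39, and the third 0.03 and -0.05.

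By role, the members that act with transcription and chromatin complexes held more calls lower than higher. The lists were drawn up with earlier results of these data known. Of 22 expressed members in the first list (of 26 listed), 7 were lower and 1 higher (backgrounds of 14.9% and 12% of all genes tested), with a median log2 fold change of -0.46. Without vehicle replicate 3, 6 were lower and 1 higher and the median was -0.11 (backgrounds of 13.4% lower and 12% higher). Without TP-472 replicate 3, 5 were called in all, where 19.1% of all genes tested were called. Besides ZNF516, ZNF318 and ZNF395, the members called lower with all 8 libraries were ZNF532, a partner of ZMYND8 (-0.82), the telomere-associated ZNF827 (-0.82), ZNF609 (-0.73) and ZNF652 (-0.63). The call of ZNF609 was lost as described above, that of ZNF652 without vehicle replicate 1 (-0.54), and that of ZNF827 without vehicle replicate 1 (-0.78) or any of TP-472 replicates 1 to 3 (-0.85 to -0.73). ZNF592 and ZNF687, which share a complex with ZNF532, had values of -0.50 and -0.42 that were not called, and -0.06 each without vehicle replicate 3. The member that was higher was ZNF263, with 51.3, 55.3, 70.2 and 55.1 CPM against 89.5, 87.4, 89.8 and 81.7 CPM with TP-472. Its log2 fold change of 0.59 (0.69 without vehicle replicate 3) lay at the fold limit. Its call was lost under both other scalings (0.58 and 0.55), and without any 1 of vehicle replicates 1, 2 and 4 or TP-472 replicates 1 and 3 (0.53 to 0.57).

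Of 8 RNA and ribosome factors, 2 were higher and 0 lower (backgrounds of 12% and 14.9%), ZNF622 and ZNF593, both known for their part in the maturation of the large ribosomal subunit. ZNF593 stood at 14.6, 16.01, 19.2 and 14.1 CPM with vehicle and at 25.4, 30.0, 31.2 and 24.4 CPM with TP-472. Its groups did not overlap (log2 fold change 0.80 ± 0.14, edgeR, adjusted p = 0.00339, and 0.89 without vehicle replicate 3). ZNF598, the ubiquitin ligase that senses collided ribosomes, had a log2 fold change of 0.00094 with all libraries and 0.45 without vehicle replicate 3, where its level was 97.5 CPM against 41.3, 38.2 and 39.8 CPM in the other vehicle libraries.

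Of 9 silencers of repeats and imprinted genes, 2 were called (22.2%, near the background of 26.9%): ZNF649 was higher (0.59) and ZNF445, which guards imprinted regions, lower (-0.61). Neither was called without vehicle replicate 3 (0.48 and -0.49), nor without TP-472 replicate 2 (0.58 and -0.57) or replicate 3 (0.58 and -0.58). ZNF91 and ZNF93, which bind SVA and LINE-1 elements, had log2 fold changes of -0.12 and 0.27 (-0.17 and 0.18 without vehicle replicate 3), and ZNF417 and ZNF587, which bind HERV-K, 0.30 and -0.35 (0.30 and -0.15). ZNF274, which recruits SETDB1 to the ends of ZNF genes themselves, stood at 59.1, 59.6, 67.4 and 62.1 CPM with vehicle and at 63.1, 62.7, 62.9 and 61.5 CPM with TP-472. Its libraries overlapped throughout (0.01). The 4 expressed factors of mitosis, genome maintenance and SUMO transfer gave 0 calls with all libraries and 1, ZNF668, without vehicle replicate 3 (background of 25.5% in that fit).

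The partners through which KRAB proteins act were read from a list of 26 co-repressor and heterochromatin genes. CBX5, which codes for HP1α, stood at 675, 502, 476 and 497 CPM with vehicle and at 278, 244, 245 and 347 CPM with TP-472. Its highest TP-472 library was below its lowest vehicle library (log2 fold change -0.95 ± 0.16, edgeR, adjusted p = 0.00289, and -1.003 without vehicle replicate 3). CHD3, a remodeller of the NuRD complex that binds TRIM28, was at 108, 94.6, 140 and 93.2 CPM with vehicle and at 55.2, 51.6, 45.8 and 53.3 CPM with TP-472. It too fell with and without vehicle replicate 3 (-1.08 and -0.94). EHMT2 (-0.81) and HDAC2 (0.60) were called with all 8 libraries and not without vehicle replicate 3 (-0.43 and 0.42), where ATF7IP, the partner of SETDB1, was called lower (-0.61, against -0.53). Over 17 alternative fits, the calls of EHMT2 and HDAC2 were lost in 9 and 11, among them that with the GC trend removed (-0.40 and 0.47). TRIM28 itself stood at 356, 298, 620 and 317 CPM with vehicle and at 346, 352, 333 and 322 CPM with TP-472. Its groups overlapped and vehicle replicate 3 was high (-0.23, and 0.06 without that library), and SETDB1 was at -0.27 in both fits. WIZ, which joins EHMT1 and EHMT2 in 1 complex, stood at 31.3, 18.2, 138 and 18.9 CPM with vehicle and at 16.6, 15.02, 14.7 and 19.2 CPM with TP-472. It was not called, and its log2 fold change of -1.65 was -0.48 without vehicle replicate 3. In all, 1 partner was higher and 3 were lower (backgrounds of 12% and 14.9%). There were 7 calls without vehicle replicate 2, where 30% of all genes tested were called. Without any 1 of the TP-472 libraries there were 2, where 19.1% to 21.7% of all genes tested were called.

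**Figure D5:**
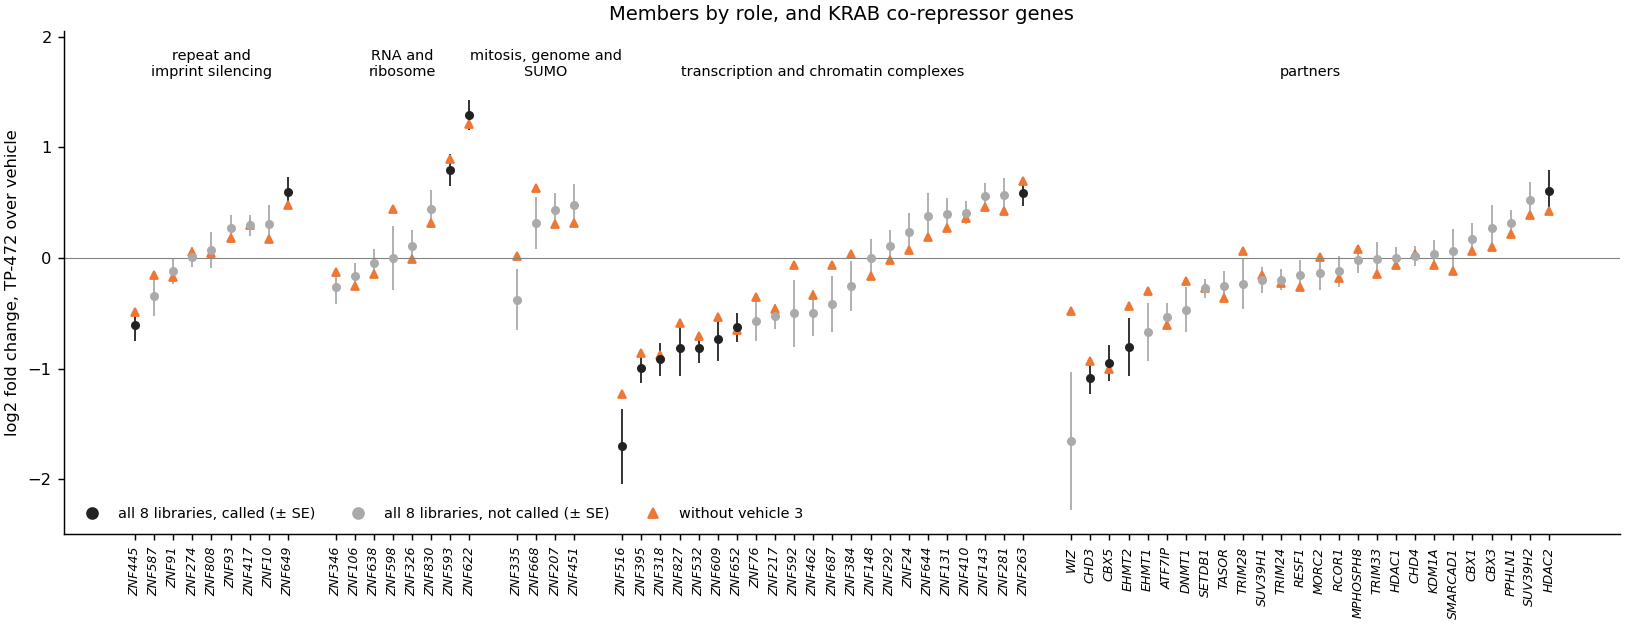
Log2 fold change of TP-472 over vehicle of members by role and of KRAB co-repressor genes (partners), ordered within each list. Circles with SE bars are values from all 8 libraries (black when called) and triangles are values without vehicle replicate 3: CBX5 and CHD3 are near -1 in both, while WIZ moves from -1.65 to -0.48.

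Related families of genes with zinc fingers gave other counts. Of the 105 numbered ZNF genes under 10 CPM that were tested, 13 were higher and 16 lower, with a median log2 fold change of -0.23 (backgrounds of 12% and 14.9% of all genes tested). ZNF genes with a letter suffix gave 3 higher and 5 lower of 39 (median 0.01), ZBTB genes 3 and 7 of 34 (-0.13), ZSCAN genes 0 and 2 of 15 (-0.08), ZKSCAN genes 0 and 1 of 7 (-0.29), and numbered ZFP genes 1 and 2 of 16 (-0.05). Without vehicle replicate 3 the low-CPM ZNF genes gave 10 higher and 14 lower (median -0.21) and those with a letter suffix 3 and 4 (-0.05), where the median changed sign. In that fit the ZBTB genes gave 2 and 6 (-0.09), the ZSCAN genes 0 and 2 (-0.03), the ZKSCAN genes 0 and 1 (-0.35), and the ZFP genes 0 and 2 (-0.07). These differences from the 320 members were not tested.

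An estimated count can hold a fraction where reads were divided between genes. Over all genes in the table, between 7.45% and 10.4% of counts were not whole in the vehicle libraries, and between 12.7% and 21.0% in the TP-472 libraries. The part of this difference between the groups in the calls was not tested. Counts that were not whole (by more than 0.01) in all 8 libraries were found for 38 members (11.9%, against 12.7% of all genes tested), and the counts of these genes are less certain. Of these 38, 7 were called higher (ZNF443, ZNF468, ZNF544, ZNF551, ZNF552, ZNF799 and ZNF814) and 1, ZNF395, lower, against backgrounds of 12% and 14.9% of all genes tested, and 6 and 1 were called without vehicle replicate 3. ZNF587 and ZNF808 were also among them. The median log2 fold change of the 38 was 0.32, and 0.24 without vehicle replicate 3, against 0.16 and 0.12 over all members. ZNF544, ZNF551, ZNF552 and ZNF814 lie in the chromosome 19 cluster nearest the long-arm end, where they were among the members called higher.

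The promoters of the members, taken from RefSeq (GRCh38.p14, 250 bases before to 50 after the start) and found for 284 of the 320, were searched on both strands for short motifs. All promoters here are 27305 promoters taken without regard to expression, unlike the genes tested. The part of expression in the differences below was not tested. Median GC content was 61.7% in the members' promoters and 58.3% in all promoters. The CCAAT box (letters CCAAT) was present in 50.7% of the members' promoters and in 35.7% of all promoters. The longer CCAATCAG, which lies on the CCAAT box and was searched after the promoters had been read, was present in 22.5% and 4.16%. The GC box (GGGCGG) was present in 65.5% and 44.6%, the TATA box (TATAAA) in 11 of 284 and 3264 of 27305 promoters, the E box (CACGTG) in 5.99% and 7.43%, and the cAMP response element (TGACGTCA) in 4.58% and 1.98%. Members called higher (31 promoters) and lower (17 promoters) held a CCAAT box in 61.3% and 23.5% and a GC box in 54.8% and 58.8%. CCAATCAG was present in 22.6% of those called higher and in 17.6% of those called lower. These are descriptions of letters, and binding was not measured. The 250 bases upstream of ZNF92, ZNF267 and ZNF57, which rose, of ZNF516, which fell, and ZNF862, which also fell, are shown (capitals mark CCAAT, CCAATCAG and GGGCGG on either strand). CCAATCAG stands more than once upstream of ZNF92, ZNF267, ZNF57 and ZNF862, and ZNF516 has GC boxes and no CCAAT box. Single genes went either way: ZNF622 and ZNF583, which rose, hold none of the motifs in these 250 bases, and ZNF608, which fell, holds CCAATCAG.
ZNF92, chr7:65373605-65373854, plus strand: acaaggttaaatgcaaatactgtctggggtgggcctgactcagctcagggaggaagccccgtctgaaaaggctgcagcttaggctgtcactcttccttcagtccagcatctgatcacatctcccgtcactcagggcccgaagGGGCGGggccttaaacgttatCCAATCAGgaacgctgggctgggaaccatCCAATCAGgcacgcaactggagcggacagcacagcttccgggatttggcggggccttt
ZNF267, chr16:31873557-31873806, plus strand: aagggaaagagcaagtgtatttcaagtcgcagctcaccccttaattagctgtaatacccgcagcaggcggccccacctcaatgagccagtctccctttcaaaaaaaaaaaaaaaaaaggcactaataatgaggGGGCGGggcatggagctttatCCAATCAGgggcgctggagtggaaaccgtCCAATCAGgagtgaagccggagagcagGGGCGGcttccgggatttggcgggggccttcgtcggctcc
ZNF57, chr19:2900678-2900927, plus strand: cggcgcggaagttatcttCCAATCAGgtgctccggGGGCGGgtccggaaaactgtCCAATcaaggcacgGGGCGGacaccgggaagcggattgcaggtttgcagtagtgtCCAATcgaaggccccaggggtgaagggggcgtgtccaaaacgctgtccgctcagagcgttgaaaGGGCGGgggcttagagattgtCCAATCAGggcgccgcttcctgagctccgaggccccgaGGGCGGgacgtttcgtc
ZNF516, chr18:76495243-76495492, minus strand: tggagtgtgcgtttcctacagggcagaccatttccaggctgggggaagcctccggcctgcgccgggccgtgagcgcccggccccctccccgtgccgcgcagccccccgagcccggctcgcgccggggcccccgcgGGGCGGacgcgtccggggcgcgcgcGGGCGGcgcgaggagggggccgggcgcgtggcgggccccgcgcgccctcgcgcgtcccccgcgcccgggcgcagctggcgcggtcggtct
ZNF862, chr7:149838125-149838374, plus strand: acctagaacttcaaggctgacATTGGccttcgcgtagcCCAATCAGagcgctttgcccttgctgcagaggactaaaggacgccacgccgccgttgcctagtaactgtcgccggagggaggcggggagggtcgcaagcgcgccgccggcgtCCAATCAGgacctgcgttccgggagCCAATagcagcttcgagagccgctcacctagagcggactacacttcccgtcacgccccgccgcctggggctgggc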

How the data were processed

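The authors made TruSeq libraries from total RNA of SK-UT-1 cells (4 vehicle, 4 TP-472). The deposited values are estimated counts: per the labels and the study's methods, the authors quantified reads with Salmon 1.4.0 on GRCh38 transcripts and summed them by gene with tximport, without normalization. Counts were rounded here. Genes over 1 CPM in at least 4 libraries were kept (14073), scaled by TMM and tested with edgeR 4.0.16 (glmQLFit and glmQLFTest, R 4.3.3), with Benjamini-Hochberg adjustment over all of them. The study's limits (adjusted p under 0.05, fold over 1.5) were used, as its methods name no test for the RNA-seq comparison. Levels of ZNF and partner genes are TMM-scaled CPM, and the means behind the 10 CPM limit and the levels of cell type markers are CPM of library totals.

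The members and lists were chosen with earlier results of these data known. Named genes were the 8 highest and 8 lowest by log2 fold change among called members whose groups did not overlap, the 5 with the highest mean CPM, those next to the limit of 10 CPM, up to 5 that gained or lost the call without vehicle replicate 3, and the role and partner lists. Cluster members and motif examples were chosen after their values were seen. Positions, GC content and linker sites came from GENCODE release 29 (GRCh38), and promoters from RefSeq. A planned search of protein sequences was replaced by the linker search in coding sequences, since protein sequences were not used here.

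On simulated counts for this comparison (14073 genes), the fit recovered 197 of 200 changed genes (97 changed 2-fold and 100 changed 3-fold) with 1 false call. The simulated counts had the same spread for all genes and no library shifted like vehicle replicate 3. They thus show that the fit runs as intended, and the rate of false calls in the real data was not measured. No pairing of the libraries by replicate number was seen, in a check that cannot show its absence, and no library was a copy of another. Alternatives were RLE scaling, library totals, DESeq2 1.42.0, limma-voom (limma 3.58.1), other filters, a replicate block, each library left out and, added after seeing the data, removal of the GC trend. Depth was 32574716 to 38545695 counts per library, and the SDs and SEs given are of the spread between libraries.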

Additional observations from a re-analysis of the deposited data

Results flagged for a closer look

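Single libraries far from the other 3 of their group were found by Dixon's test, which flags about 1 in 20 groups by chance. Over the 320 members, vehicle replicate 3 was such a library for 62 (31 of them high) and TP-472 replicate 4 for 21 (21 of them high), against 4 each for vehicle replicate 1 and TP-472 replicates 1 and 2, and 1 for TP-472 replicate 3.

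Vehicle replicate 3 was low for the abundant members ZNF207 (181 CPM), ZNF106 (223 CPM), ZNF638 (177 CPM) and ZNF451 (98.0 CPM). It was high for ZNF358 (50.6 CPM), ZNF395 (76.7 CPM), ZNF668 (20.8 CPM), ZNF692 (43.4 CPM) and ZNF408 (13.3 CPM). TP-472 replicate 4 was high for ZNF318 (52.0 CPM) and ZNF638 (237 CPM), and TP-472 replicate 1 was low for ZNF583 (16.7 CPM). The cause was not tested for any of these libraries.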

How the results depend on the processing

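The members' median log2 fold change stayed above 0 under every alternative, from 0.06 with the GC trend removed to 0.18. Leaving out 1 library at a time gave 28 to 44 members higher and 12 to 22 lower, a median of 0.12 to 0.18, 2690 to 4223 genes called in all (9.26% to 13% of all genes tested higher and 9.86% to 17% lower), and 2 to 7 partner genes. The number lower was 12 without TP-472 replicate 2 (background 9.97%) and 13 without TP-472 replicate 3 (9.86%). Without the fold limit, 87 members were higher, 32 were lower and 7 partner genes were called (backgrounds of 17.2% higher and 19.1% lower). DESeq2 gave 38 higher and 22 lower (11.9% and 6.88%, against 11.4% and 12.3% of all genes it gave an adjusted p), limma-voom 43 and 19 (13.4% and 5.94%, against 12.9% and 13.1%), and library totals 33 and 21 (10.3% and 6.56%, against 11.3% and 14.9%). A mean of at least 5 CPM gave 44 and 27 (11.6% and 7.12% of 379 genes), and of at least 20 CPM 26 and 15 (12.1% and 7.01% of 214), against 12% and 14.9%. With the GC trend removed, 27 were higher and 29 lower (backgrounds of 13.3% and 14.8%), and 21 of the 37 higher and 17 of the 20 lower calls were kept, and without vehicle replicate 3 as well 31 were higher and 17 lower (backgrounds of 12.4% and 12.8%). With the replicate number as a block, 40 members were higher, 16 lower and 2 partner genes called (median 0.18, backgrounds of 10.7% and 11%). No pairing by number was seen: same-numbered libraries correlated at -0.08, 0.11, -0.22 and -0.22, and 0 vehicle libraries correlated best with their own number. These correlations are of deviations from group means that include the shifted vehicle replicate 3, so they cannot show that pairing was absent. Over 91 named genes and their alternatives (1547 values), 1425 kept their call or lack of one, 86 lost the call and 36 gained it. A total of 59 values, over 19 genes, had the opposite sign to that with all 8 libraries, and 0 of these values were called. The causes were not tested.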

Other observations

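The members' calls are given here by GC content, with the shares called among all genes tested in the same bin. Under 40% GC, 10 of 81 members were higher and 1 lower (12.3% and 1.23%, against 12.7% and 7.16% of 2025 genes), with medians of 0.16 and 0.14. At 40 to 44%, 12 of 102 were higher and 2 lower (11.8% and 1.96%, against 15.6% and 8.26% of 2397), with medians of 0.23 and 0.16. At 44 to 48%, 9 of 52 were higher and 5 lower (17.3% and 9.62%, against 15.8% and 10.3% of 2169), with medians of 0.30 and 0.09. At 48 to 54%, 4 of 36 were higher and 5 lower (11.1% and 13.9%, against 14.1% and 14.9% of 2662), with medians of 0.02 and 0.01. At 54% or more, 2 of 49 were higher and 7 lower (4.08% and 14.3%, against 6.87% and 23.8% of 4717), with medians of -0.29 and -0.34. Without vehicle replicate 3 the members gave, in the same order of bins, 6 higher and 2 lower, 4 and 2, 8 and 4, 4 and 4, and 6 and 4. In that fit all genes tested gave 184 higher and 211 lower, 269 and 249, 298 and 214, 385 and 327, and 534 and 877.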
